A study of Homo sapiens with 2 samples.

Results

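The genes examined here load the replicative helicase onto origins of DNA replication or work at the replication fork: MCM2, MCM3, MCM4, MCM5, CDC6, GINS1, GINS2, POLA1, POLE2 and PCNA. They were picked by name, with their values known, from the authors' deposited table of differing genes, and they make up 10 of its 836 loci. RNA had been sequenced from MiaPaCa, an established cell line of human pancreatic cancer, in 1 library per group. The Scr control library came from a stably transfected, puromycin-selected (2 µg/ml) pool with the pGFP-V-RS-Scr control plasmid, and its genotype label reads MYB-overexpression. The MYB-silenced library came from a pool selected in the same way with the short hairpin RNA plasmid pGFP-V-RS-shMYB. The labels describe no untransfected control, no single clone and no other hairpin. MYB, the transcription factor targeted, measured 981 FPKM (fragments per length of transcript and per amount of mapped fragments) in the Scr control library against 0.554 FPKM in the MYB-silenced library. The protocols describe hairpin and scrambled plasmids and no MYB expression plasmid, so what the overexpression label stands for is unclear, and whether reads other than those of the endogenous gene enter the 981 FPKM was not tested. The control may therefore not stand for unmodified MiaPaCa cells. Of 27 marker genes for pancreatic epithelium, mesenchyme, blood, endothelium, fibroblasts, acinar and endocrine cells, 1 (INS, in a joint locus) has a row in the table, so the labelled cell type could not be checked against its markers.

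With 1 library per group, no spread between replicates exists, no test was run, and every value below is a description of these libraries. Sequencing depth is unknown, because the table holds FPKM values without counts. The largest p-value of any row is 0.04995 in the authors' deposited table, so a gene has values here only where the authors' comparison had already separated the libraries. The difference between the libraries therefore chose these genes, and their direction supports nothing by itself. In RNA from whole cultures, fewer cells expressing a gene and less RNA per cell cannot be told apart.

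Replication origins are licensed in G1, when the origin recognition complex, CDC6 and CDT1 load the ring-shaped helicase made of the 6 proteins MCM2 to MCM7. At the start of S phase the kinase CDC7 with its partner DBF4 phosphorylates the ring, and CDC45 and the GINS complex join it to form the active helicase. DNA polymerase alpha with primase then lays the primers, polymerase epsilon and polymerase delta extend the leading and the lagging strand, and the clamp PCNA, loaded by replication factor C, holds polymerases on the DNA. Many of these genes are known targets of the E2F transcription factors, which are held back by the retinoblastoma family until late G1.

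Stretches just before transcription start sites are shown for 1 member each of the helicase, GINS, primase-polymerase and clamp groups. The sequences are from RefSeq (build GRCh38.p14), whose table held promoters for 8 of the 10 genes, with 2 start sites for PCNA, and no entry for MCM4 and MCM5. Each window covers the 250 bases before a start, and the longest stretch outside annotated exons is printed, 5′ to 3′ on the gene's own strand. Capitals mark matches on either strand to an E2F motif (TTCGCGC or TTGGCGC or TTCCCGC), or to the box CCAAT, or to the MYB motif (CAACNG or TAACNG). The stretches printed are from the windows with an E2F match, so they do not stand for all 10 genes. Windows without an E2F match, such as those of GINS1 and of the other PCNA start, are not printed. The MCM3 stretch is chr6:52284882-52284992 on the minus strand, that of GINS2 is chr16:85689000-85689204 on the minus strand, that of POLA1 is chrX:24693668-24693917 on the plus strand, and that of the upstream PCNA start is chr20:5126627-5126785 on the minus strand.
MCM3: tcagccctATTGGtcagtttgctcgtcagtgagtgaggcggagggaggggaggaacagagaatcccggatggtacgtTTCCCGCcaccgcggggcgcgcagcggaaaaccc
GINS2: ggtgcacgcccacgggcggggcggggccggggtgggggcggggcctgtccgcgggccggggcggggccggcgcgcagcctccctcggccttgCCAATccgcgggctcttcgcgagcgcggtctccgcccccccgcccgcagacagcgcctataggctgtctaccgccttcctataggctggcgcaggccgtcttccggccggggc
POLA1: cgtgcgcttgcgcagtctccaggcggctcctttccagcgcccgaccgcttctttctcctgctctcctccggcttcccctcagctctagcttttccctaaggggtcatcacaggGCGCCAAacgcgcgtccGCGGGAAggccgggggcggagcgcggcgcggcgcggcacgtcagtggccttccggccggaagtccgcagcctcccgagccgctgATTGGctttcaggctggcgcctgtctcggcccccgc
PCNA: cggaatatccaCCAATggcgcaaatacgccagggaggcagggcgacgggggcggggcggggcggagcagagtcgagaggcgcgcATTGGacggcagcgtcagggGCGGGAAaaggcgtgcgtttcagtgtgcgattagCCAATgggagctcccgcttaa

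An E2F motif was found in 4 of the 9 member windows, those of MCM3, GINS2, POLA1 and the upstream start of PCNA. The share was 9.32% of 35116 promoter windows, which were matched for length only. Each E2F motif contains the letters CG. The member windows held from 16 (GINS1) to 38 (GINS2) such CG pairs, against a median of 11 over all promoters. The part of base composition in these shares was not tested. The match of GINS2, 31 bases before the start, and another match of MCM3, 23 bases before the start, lie in the part not printed. Among replication genes on the lists used below, the share was 9 of 19 windows for the other genes that have a row and 24 of 66 windows (36.4%) for the genes that have none. The E2F letters were thus also found in replication genes without a row. They lay in 17.8% of the promoters of all lower loci and 8.72% of those of all higher loci. A CCAAT box lay in 7 of the 9 member windows, against 32.01% of all promoters. It lay in 7 of 19 windows of the other replication genes with a row, in 34 of 66 (51.5%) of those without, and in 37.9% of lower and 31.8% of higher loci. The 7 member windows are those of MCM3, CDC6, GINS1, GINS2, POLA1 and both starts of PCNA. In the CDC6 window the longest stretch outside annotated exons was 4 bases, so its CCAAT matches overlap annotated exons. That stretch was 0 bases for MCM2 and 42 bases for POLE2. For GINS1 alone, the end of the promoter entry was not found in a transcript of the gene, so its start could not be checked that way. A MYB motif lay in 2 of the 9, as TAACAG 89 bases before the start of POLE2 and as TAACCG 7 bases before the upstream start of PCNA (cut by the end of the printed stretch), against 39.3% of all promoters. The MYB letters lay in 6 of 19 windows of the other replication genes with a row, in 24 of 66 of those without, and in 43.1% of lower and 23.4% of higher loci. In these windows no CCAAT or MYB match overlaps an E2F match. A match is a description of the letters and not a binding site.

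All 10 genes were lower in the MYB-silenced library, at between 38.3% and 54.5% of their control level. The ratios below are log2((MYB-silenced FPKM + 0.5)/(Scr control FPKM + 0.5)), which understates differences of weakly expressed genes, and negative values mean lower after silencing. The 10 ratios ran from -1.29 for POLE2 to -0.87 for POLA1 and PCNA, with a median of -0.95. Being lower was common in the table: 797 loci reached a mean of 1 FPKM over both libraries, all 10 genes included, and 62.4% of the 797 were lower. At least 2-fold lower (a log2 ratio of -1 or less) were 4 of the 10 genes, MCM3, MCM4, CDC6 and POLE2, against 24.7% of those 797 loci and 39.6% of the 497 lower loci among them. In the plot of FPKM by gene, every pair of points has the same order, and the distance on the log axis is longest for POLE2.

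**Figure D1:**
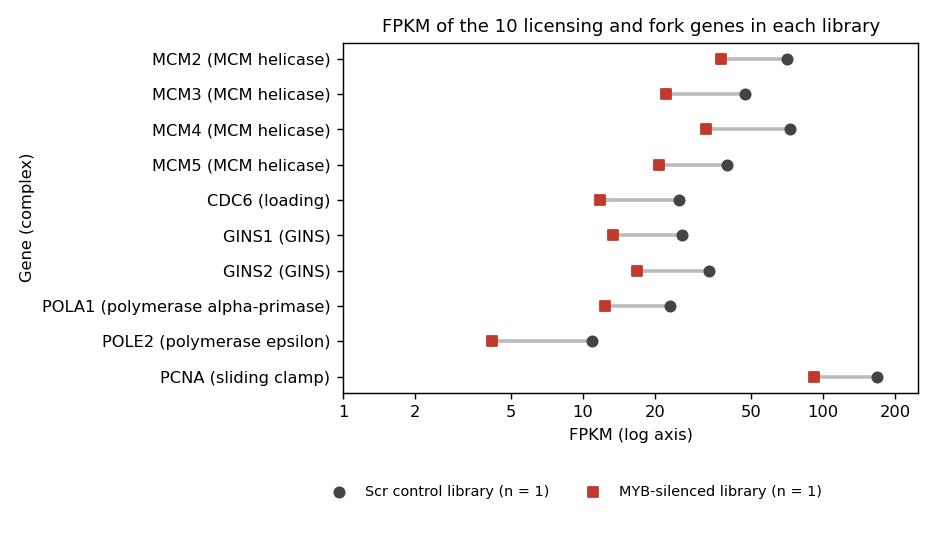
FPKM (log axis) of the 10 genes in the Scr control library (circles) and the MYB-silenced library (squares), 1 library each, with the complex in brackets. The MYB-silenced point lies to the left for all 10, and the levels run from 4.18 FPKM for POLE2 after silencing to 168 FPKM for PCNA in the control.

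CDC6, an ATPase that joins the origin recognition complex to bring in the helicase, measured 25.2 FPKM in the Scr control library against 11.7 FPKM in the MYB-silenced library, 46.5% of control and a log2 ratio of -1.07 (chromosome 17, 38444146 to 38459413, hg19). It is the only gene of the loading step that has a row. CDT1, which carries the helicase to the origin, and GMNN (geminin), which inhibits CDT1, have none. Of the 6 origin recognition subunits, ORC1 and ORC6 have a row and ORC2, ORC3, ORC4 and ORC5 have none. ORC1, the ATPase subunit that is degraded in S phase in human cells, was at 8.56 FPKM in the control against 4.14 FPKM after silencing (log2 ratio -0.96). ORC6, the smallest subunit, was at 27.8 and 15.4 FPKM (log2 ratio -0.84). The licensing factors outside the helicase ring were thus represented by CDC6 and this pair, and all 3 were lower.

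The helicase ring was represented by 4 of its 6 subunits, and MCM6 and MCM7 have no row in the table analysed here. MCM4 (chromosome 8, 48872763 to 48890719) measured 72.6 FPKM in the control against 32.5 FPKM in the MYB-silenced library, 44.8% of control, with the lowest ratio of the 4 at -1.15. MCM3 (chromosome 6, 52128812 to 52149679) measured 47.2 FPKM and 22.2 FPKM, a log2 ratio of -1.07. Both lie in the upper part of the level order, MCM4 being at rank 2 of the 10 genes in the control and MCM3 at rank 4. MCM2 (chromosome 3, 127317253 to 127341278), the subunit with a histone-binding tail, measured 71.1 FPKM and 37.5 FPKM, a log2 ratio of -0.91. MCM5 (chromosome 22, 35796116 to 35820495), its neighbour at the gate of the ring, measured 39.8 FPKM and 20.7 FPKM, a log2 ratio of -0.93. MCM2 and MCM5 thus lay under 2-fold and MCM3 and MCM4 over it, with no error to judge that gap by.

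The proportions among the ring subunits were not the same in both libraries, with no error to judge the shifts by. MCM4 was at 1.82 times the FPKM of MCM5 in the control and at 1.58 times after silencing. MCM2 was at 0.98 times the FPKM of MCM4 in the control and at 1.15 times after silencing, which turns their order, while MCM2 over MCM5 was 1.79 and 1.82. The ring's proteins are known to assemble in equal numbers, while these FPKM values are transcript levels. Relatives of the ring were split between rows and no rows. MCM10, which acts when the helicase is activated, was at 10.4 FPKM in the control against 3.61 FPKM after silencing, a log2 ratio of -1.41 that lay below those of all 10 genes. MCMBP, a binding partner of MCM proteins, was at 38.9 and 21.2 FPKM (log2 ratio -0.86), and MCM8 and MCM9 have no row.

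GINS was the one complex with more than 1 subunit whose every gene has a row. GINS1 (chromosome 20, 25388315 to 25429191) measured 25.8 FPKM in the control against 13.3 FPKM in the MYB-silenced library, a log2 ratio of -0.93. GINS2 (chromosome 16, 85711280 to 85722588) measured 33.6 FPKM and 16.9 FPKM, a log2 ratio of -0.98. Both sat at close to 50% of control (51.6% and 50.1%). Their partners GINS3, at 19.4 FPKM and 9.63 FPKM, and GINS4, at 38.1 FPKM and 21.5 FPKM, had log2 ratios of -0.97 and -0.81. The order of the 4 levels, GINS4, GINS2, GINS1 and GINS3 from high to low, was the same in both libraries. Of 9 helicase activation genes outside GINS, CDC7 alone has a row, at 13.9 FPKM and 7.59 FPKM (log2 ratio -0.84). CDC45, DBF4, DBF4B, TOPBP1, TICRR, MTBP, RECQL4 and DONSON have none, so of the active helicase (CDC45, the MCM ring and GINS) 8 of 11 genes could be described.

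Of the polymerase subunits, POLE2 had the lowest ratio and the lowest level of the 10 genes. POLE2 (chromosome 14, 50110270 to 50155098), the accessory subunit that ties polymerase epsilon to the helicase, measured 10.9 FPKM in the control against 4.18 FPKM after silencing, 38.3% of control and 2.61-fold lower. No other polymerase epsilon gene (POLE, POLE3 and POLE4) has a row, so the catalytic subunit could not be set beside it. POLA1 (chromosome X, 24711989 to 25015102), the catalytic subunit of polymerase alpha, measured 23.1 FPKM and 12.4 FPKM, 53.7% of control. Its complex was described by 3 of 4 genes. PRIM1, the catalytic primase subunit, was at 15.8 FPKM and 8.29 FPKM (log2 ratio -0.89), and PRIM2, the large primase subunit, was at 20.7 FPKM and 9.46 FPKM (log2 ratio -1.09). POLA2 has no row. POLD3, an accessory subunit of polymerase delta, was at 12.5 FPKM and 6.0005 FPKM (log2 ratio -1.004), and POLD1, POLD2 and POLD4 have no row.

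PCNA (chromosome 20, 5095599 to 5107268) was the most abundant of the 10 transcripts in both libraries, at 168 FPKM in the control against 91.7 FPKM after silencing. It kept 54.5% of its control level, the largest share of the 10, a log2 ratio of -0.87. Its level was 15.4 times that of POLE2 in the control and 21.9 times that of POLE2 after silencing. Of 9 genes that load or unload the clamp, RFC3, a subunit of replication factor C, was at 78.2 FPKM and 30.6 FPKM, a log2 ratio of -1.34. ATAD5, which unloads PCNA, was at 4.83 FPKM and 2.17 FPKM (log2 ratio -0.997). RFC1, RFC2, RFC4, RFC5, CHTF18, CHTF8 and DSCC1 have no row, so the loader was seen through RFC3 alone. DTL, which directs the PCNA-coupled destruction of CDT1, was at 24.3 FPKM and 11.6 FPKM (log2 ratio -1.04), and the clamp-binding PCLAF has no row.

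The level order of the 10 genes in the control, from PCNA through MCM4, MCM2, MCM3, MCM5, GINS2, GINS1, CDC6 and POLA1 to POLE2, differed from the order after silencing at 2 neighbouring pairs. MCM2 passed MCM4, and POLA1 passed CDC6. Without replicates it cannot be said which neighbours differ beyond their spread.

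Fork factors outside these complexes added 5 lower genes. CLSPN (claspin), an adaptor of the replication checkpoint, was at 10.1 FPKM in the control against 3.06 FPKM after silencing, a log2 ratio of -1.57 and the lowest of all replication genes with a row. TIPIN, the partner of TIMELESS in fork protection, was at 10.8 FPKM and 4.43 FPKM (log2 ratio -1.19), while TIMELESS has no row. WDHD1, which links the helicase to polymerase alpha, was at 16.2 FPKM and 9.03 FPKM (log2 ratio -0.81). The nucleases that trim Okazaki fragments, FEN1 at 19.8 FPKM and 9.16 FPKM and DNA2 at 10.8 FPKM and 5.18 FPKM, had log2 ratios of -1.07 and -0.99, and LIG1 and RNASEH2A have no row. From the E2F and retinoblastoma list of 8, the repressors E2F8 (4.53 FPKM and 1.84 FPKM, log2 ratio -1.11) and RBL1 (12.99 FPKM and 5.68 FPKM, log2 ratio -1.13) have a row. E2F1, E2F2, E2F3, E2F7, RB1 and RBL2 have none.

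**Figure D2:**
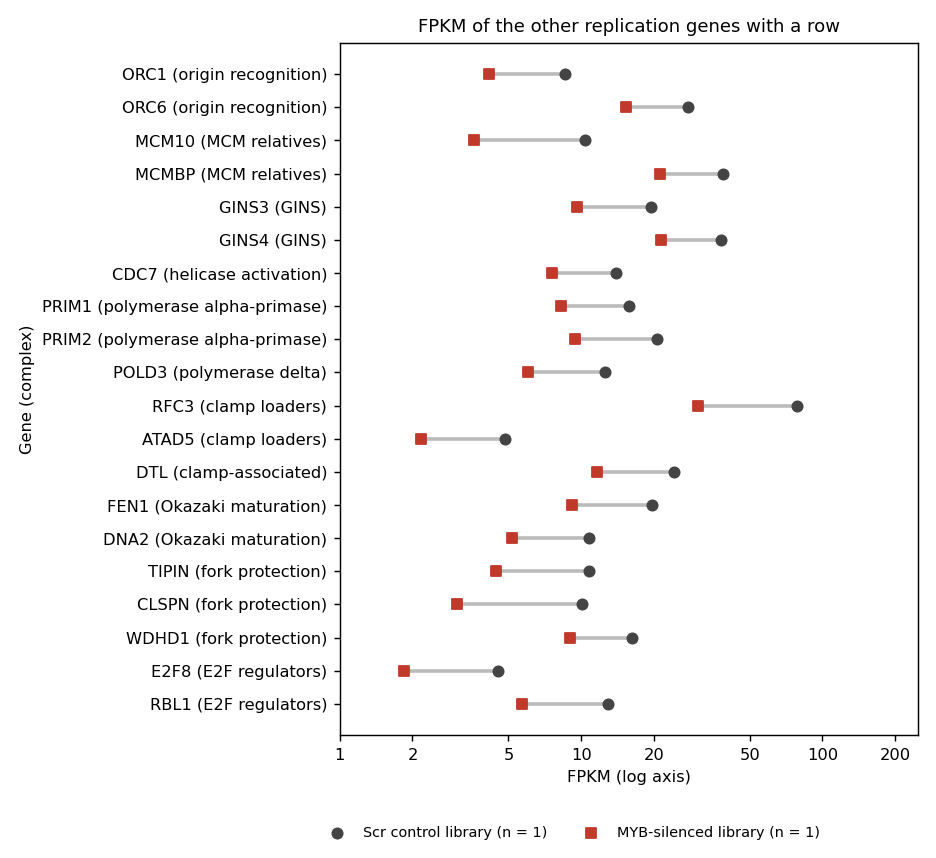
FPKM (log axis) of the 20 other replication genes that have a row, in the Scr control library (circles) and the MYB-silenced library (squares), 1 library each. All 20 MYB-silenced points lie to the left, with the widest gap for CLSPN and control levels from 4.53 FPKM for E2F8 to 78.2 FPKM for RFC3.

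Across 82 genes on 18 lists of replication complexes and steps, 30 have a row and all 30 were lower. With the pseudocount of 0.5 FPKM, 14 of them were at least 2-fold lower. Leaving aside the 10 genes chosen by name, 20 of 72 have a row, 20 were lower and 0 higher, and their ratios ran from -1.57 to -0.81 with a median of -1.001. In the table as a whole 62.4% of the 797 loci were lower and 24.7% at least 2-fold lower, and of the 497 lower loci 39.6% were at least 2-fold lower. No gene has a row among the 3 single-strand binding proteins (RPA1, RPA2 and RPA3), the 5 nucleotide supply genes examined (RRM1, RRM2, TYMS, TK1 and DUT) or the topoisomerases TOP1 and TOP2A. The lists were drawn up with earlier results of these data known. A gene without a row has no value here, and neither a difference nor its absence can be read from that.

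**Figure D3:**
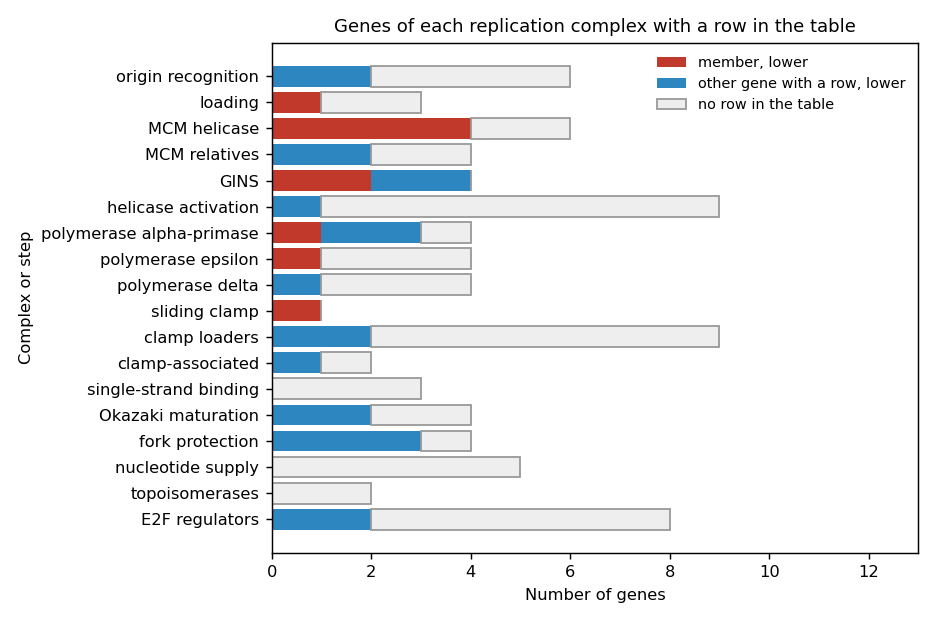
Number of genes on each list: members (red), other genes with a row (blue) and genes without a row (pale). Each coloured gene was lower in the MYB-silenced library. GINS (4 of 4) and the single-gene clamp are complete, the MCM helicase has 4 of 6, and 3 lists are empty.

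The sizes of the 10 ratios can be set beside those of other loci. The median ratio was -0.95 for the 10 genes, -0.93 for the 497 lower loci and -0.80 for all 797 loci. Of the lower loci, 355 had a mean level within the range of the 10 genes, with a median of -0.89 and quartiles of -1.04 and -0.80. Between those quartiles lay 6 of the 10 genes. The lower loci closest to 0 had a ratio of -0.71, an edge that goes with the authors' choice of rows. Whether their p-value alone set it cannot be told from the rows. The narrow spread of the 10 ratios (0.41 from lowest to highest) is thus bounded on one side by the selection of rows. By rank among the 497 lower loci, starting from the lowest ratio, POLE2 was at 84, MCM4 at 127, CDC6 at 156 and MCM3 at 159. With the pseudocount of 0.5 FPKM, POLA1 came last of the 10 at 315, after PCNA at 311. Their order depends on the pseudocount: with 0.1 FPKM, PCNA (-0.875) lay closer to 0 than POLA1 (-0.891).

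In the authors' deposited table the 10 genes had unadjusted p-values from 0.00205 for MCM4 to 0.0192 for GINS2. A p-value of 0.01 or less was given for 4 of the 10 (MCM3, MCM4, CDC6 and POLE2), against 30.3% of all 836 loci. With 1 library a group, these p-values compare the libraries and not the conditions.

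**Figure D4:**
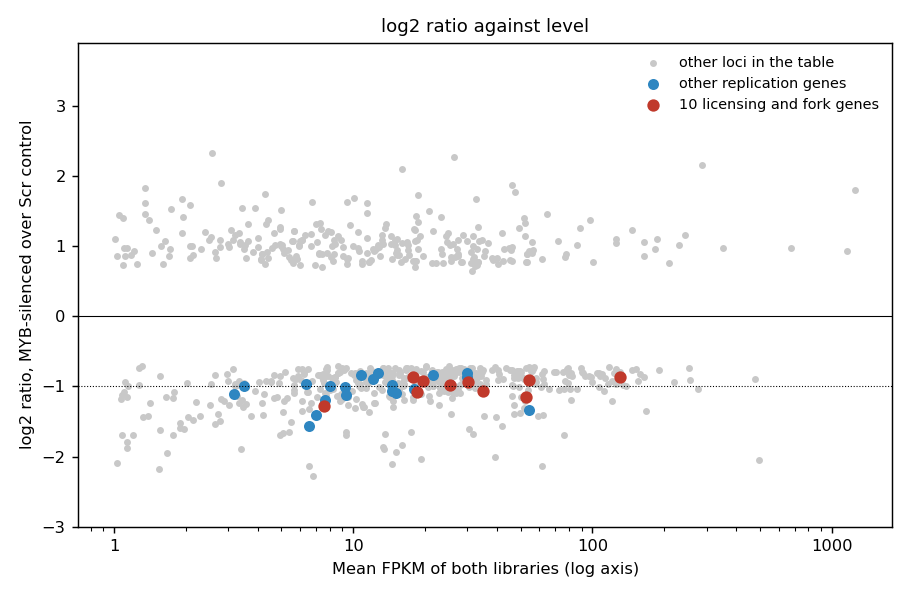
log2 ratio (MYB-silenced over Scr control, pseudocount 0.5 FPKM) against the mean FPKM of both libraries (log axis) for 765 loci above 0 in both libraries, with a mean of at least 1 FPKM and a ratio within 3 of 0. The 10 genes (red) and the 20 other replication genes (blue) lie in the band of lower loci, none above 0, and the dotted line marks a ratio of -1.

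Among 489 single-gene loci outside the lists and within the level range of the 10 genes, 145 had a ratio between those of POLE2 and POLA1. The 5 closest to the median of the 10, by absolute difference of the log2 ratio over these 2 libraries, were FGFR1OP (20.4 FPKM and 10.3 FPKM), ALG10B (10.1 FPKM and 4.99 FPKM), PIGA (14.0 FPKM and 7.01 FPKM), LOC154092 (15.3 FPKM and 7.68 FPKM) and the mitotic kinase CDK1 (75.8 FPKM and 38.8 FPKM). Likeness on a single ratio is weak, since 145 loci fall in the same range.

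Direction in the table went with the GC content of transcripts (medians of 44.5% for lower and 60.6% for higher loci). The 10 genes spanned 38.0% to 58.6% GC (median over each gene's GENCODE release 29 transcripts). Of 487 other loci in that range, 382 (78.4%) were lower. With the loci cut into 5 GC content bins of equal size, POLE2 fell in the bin where 92.7% of loci were lower. CDC6, GINS1, PCNA and POLA1 fell in the bin with 87.9% lower, MCM3 and MCM4 in that with 71.1%, and MCM2, MCM5 and GINS2 in that with 50.3%. The 10 genes are thus spread over 4 of the 5 bins. They were picked with their values known, so being lower in each bin adds nothing. The part of GC content in these ratios was not tested.

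**Figure D5:**
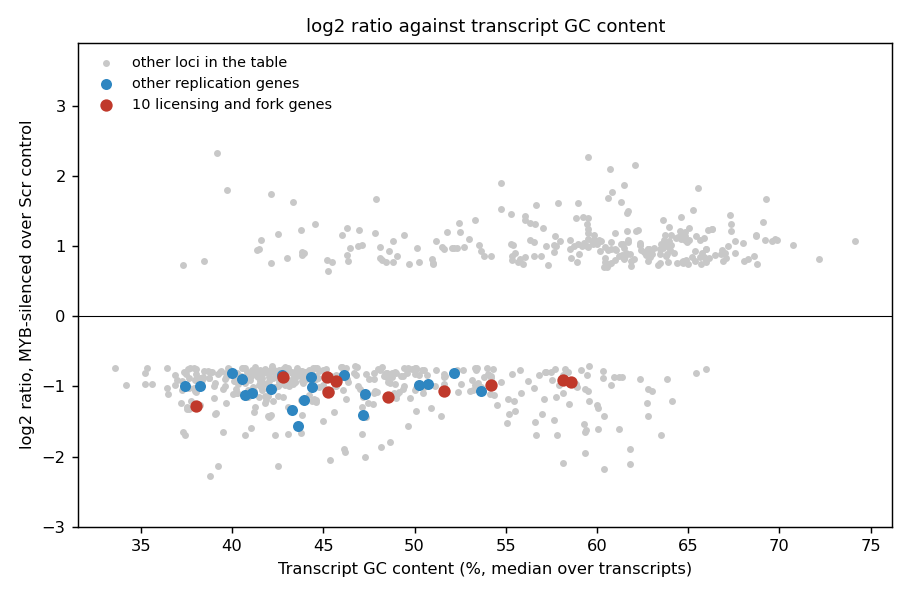
log2 ratio (MYB-silenced over Scr control) against transcript GC content in percent for 717 loci with a GC value, drawn under the same limits as the plot against level. The 10 genes (red) lie below 0 from 38.0% to 58.6% GC, where 78.4% of other loci are lower, and higher loci gather at high GC content.

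Several of the 10 genes share sequence or a start region with a neighbour. In the GENCODE annotation TPRA1 starts 44 bases from MCM2 on the opposite strand and overlaps it, PRKDC starts 2 bases from MCM4 on the opposite strand, and CDS2 starts 160 bases from PCNA on the opposite strand. None of these neighbours has a row, so whether a shared start region goes with a shared direction could not be described. GINS2 lies opposite GSE1 in that annotation, and processed pseudogenes of other genes overlap POLA1 and POLE2. On the same strand, the small RNA genes SCARNA23 and RF00568 overlap POLA1 and PCNA. On the opposite strand, the small RNA gene RNU6ATAC30P overlaps POLE2 and the antisense gene AC023593.1 overlaps MCM2. None of these has a row, and whether their reads enter the FPKM of the members was not tested. The strand setting of the authors' counting was not stated in the labels, so reads of MCM2 and TPRA1, or of GINS2 and GSE1, may not have been told apart.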

How the data were processed

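Per locus, the authors deposited an FPKM value for each of the 2 libraries, a signed fold score, a plain log2 ratio and a p-value that was not adjusted, per the file headers. The submitters' processing notes name the build hg19 and, without roles, Bowtie, TopHat, Cufflinks and CASAVA 1.8.2. How the libraries were scaled to each other, and the annotation, were not stated. The table held 836 loci and 13689 blank lines, which were dropped. Its log2 ratios were recomputed from the FPKM values to within 0.001 for the 801 loci above 0 in both libraries.

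The ratio was computed with a pseudocount of 0.5 FPKM (Python 3.11.15, pandas 2.3.3). It was checked only on values built from the same formula without noise, which covers the arithmetic and not the accuracy of the ratios. Counts used loci whose mean reached 1 FPKM. Starts were raised by 1: of 754 loci matched to RefSeq gene lengths, 41 fitted a start counted from 0 and 7 a start counted from 1. GC content was found for 783 loci (93.7%). Named were MYB, the 10 genes, every list gene with a row, the 5 loci closest in ratio, and genes sharing a start region or overlapping. Overlapping pseudogenes were not named. The genes and lists were chosen with earlier results of these data known, and 1 further list gene is not reported here and enters no count. List genes without a row were also searched under older symbols and synonyms. Other pseudocounts, level filters, fold thresholds, a p-value limit and centring were tried.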

Additional observations from a re-analysis of the deposited data

How the results depend on the processing

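A pseudocount cannot turn the sign of a ratio, and the level filters cannot remove a member, since the lowest mean is 7.55 FPKM (POLE2). The count of genes at least 2-fold lower was 4 of 10 with pseudocounts of 0.1 and 1, beside 28.7% and 21.0% of all loci. It was 4 of 10 by construction without a level filter and with a mean of at least 5 FPKM, beside 209 of 836 and 137 of 627 loci. Centring subtracts the median ratio of the 797 loci, -0.80, a median of genes picked for differing and no estimate of unchanged genes. It took the median of the 10 genes to -0.15, the member ratio nearest 0 to -0.069, the count at least 2-fold lower to 0 and the background to 31 of 797 loci. At 1.5-fold the counts were 10 genes and 497 of the 797 loci (62.4%). This was so by construction, since no lower locus among the 797 lay closer to 0 than -0.71. At 3-fold the counts were 0 genes and 48 loci (6.02%). The 20 other replication genes stayed below 0 after centring, but WDHD1 (-0.0098), GINS4 (-0.012), CDC7 (-0.035) and ORC6 (-0.036) lay next to it. Of these 20, ORC1 (-1.03), GINS3 (-1.002), ATAD5 (-1.12) and DNA2 (-1.04) became at least 2-fold lower with a pseudocount of 0.1. POLD3 (-0.952) and E2F8 (-0.962) were no longer so with a pseudocount of 1. With a p-value of 0.01 or less in the authors' deposited table, 8 of those 20 were left, beside 30.3% of all 836 loci. No paired analysis was possible because each group has 1 library, and for the same reason no library could be left out. Depth is unknown, so the precision of the weakest members, POLE2 above all, cannot be stated.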
